A study of Mus musculus with 15 samples.

Results

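The genes described here belong to the interferon response and to the presentation of antigen on MHC class I. They were listed by name, 37 in all, and matched by gene symbol to the probe sets of 15 Affymetrix arrays. Of these, 35 had a probe set, 1 each, among 21212 probe sets, and Isg15 and Ifi44 were not analysed here. The arrays measured total RNA of E14TG2a.4 cells, a line of mouse embryonic stem cells that needs no feeder layer. The cells were at passage 17 and were cultured on gelatin in serum with the cytokine LIF, which keeps them undifferentiated. All 5 groups carried a lentivirus that encodes a short hairpin RNA (shRNA) and were put under 2 µg per ml puromycin from 36 h after transduction for 72 h. The Tet1 set had 3 arrays each of a scrambled hairpin, of Tet1 shRNA 4 and of Tet1 shRNA 5. The Sin3A set had 3 arrays of its own scrambled group and 3 of a Sin3A shRNA. Cells without a lentivirus and cells given interferon are not among these groups, so every value below is a difference between transduced cells. Separate cultures within a group are not stated in the labels, and the p-values then reflect the variation among these arrays alone, which may be technical.

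Interferons are secreted proteins that warn cells of a virus. Viral RNA is sensed in the cytoplasm by Ddx58 (RIG-I) and Ifih1 (MDA5), which signal through the adaptor Mavs, or in endosomes by Tlr3. The factor Irf3 passes the signal on to the interferon genes. Secreted type I interferon binds the receptor Ifnar1 and Ifnar2, the kinases Jak1 and Tyk2 pass the signal on to Stat2, and Stat2 and Irf9 act in a complex, ISGF3, that binds the interferon-stimulated response element (ISRE) in its target genes. Type II interferon acts through Ifngr1 and Ifngr2 and the gamma-activated site (GAS) in its target genes and raises Irf1, the class I genes and their peptide supply. Pluripotent stem cells are known for a weak interferon response. The Tet1 protein turns methylcytosine in DNA into hydroxymethylcytosine, and the Sin3a protein holds together a complex that removes acetyl groups from histones.

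The targeted genes fell in their own groups. Tet1 was lower by a log2 change of -1.78 with Tet1 shRNA 4 and of -2.10 with Tet1 shRNA 5, and Sin3a by -1.55 with the Sin3A shRNA. In the Tet1 set Sin3a also fell slightly (-0.27 and -0.24, adjusted p = 0.0147 and 0.0219), and that call was lost without scrambled replicate 1 for both hairpins (adjusted p = 0.0504 and 0.0669). It was also lost without Tet1 shRNA 4 replicate 1 or 3 for the first hairpin (0.0563 and 0.0539), and without scrambled replicate 3 or Tet1 shRNA 5 replicate 1 or 3 for the second (0.0582, 0.0868 and 0.0582). In the Sin3A set Tet1 was called higher with the Sin3A shRNA (0.31, adjusted p = 0.00679), whichever array was left out. All 10 pluripotency markers lay in the brightest 25% of probe sets in every group, and 2 of them passed the test in each comparison. Klf4 was higher in all 3 (0.47, 0.27 and 0.41), Tdgf1 higher with both Tet1 hairpins (0.23 and 0.2) and Nanog lower with the Sin3A shRNA (-0.27). Of 10 immune cell markers found, 7 lay in the dimmest 25% in the scrambled arrays of the Tet1 set and 6 in those of the Sin3A set. The 2 immune markers above the median probe set were Laptm5, which rose by 0.58 and 0.42 with the Tet1 hairpins, and Cd3e, which fell by 0.54 with the Sin3A shRNA. Of 9 trophoblast markers 6 passed the test in each comparison, 2 higher and 4 lower with each Tet1 hairpin and 1 higher and 5 lower with the Sin3A shRNA. Of 10 fibroblast markers 2, 3 and 2 passed in the order Tet1 shRNA 4, Tet1 shRNA 5, Sin3A shRNA, among them Acta2 (-1.3, -1.25 and -0.54) and Thy1 (0.82, 0.81 and -0.23). Of 9 primitive endoderm markers 2, 3 and 2 passed, with Sox7 higher in all 3 comparisons (0.80, 0.83 and 0.45), Lamb1 lower with the Tet1 hairpins (-0.71 and -0.52) and Dab2 lower with the Sin3A shRNA (-0.86). These are 66.7% of the trophoblast markers in each comparison, 20%, 30% and 20% of the fibroblast markers and 22.2%, 33.3% and 22.2% of the endoderm markers. Of all probe sets 11.6%, 13.8% and 24.8% passed, in the order Tet1 shRNA 4, Tet1 shRNA 5, Sin3A shRNA. The part of these markers in the results below was not tested. In bulk RNA, fewer cells that express a gene and less RNA per cell cannot be told apart.

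Promoter sequences show which of these genes match fixed patterns of interferon motifs close to the start of transcription. RefSeq windows of 300 bases (250 before to 50 after the start, build GRCm38.p6) were at hand for 28 of the 35 genes, 32 windows in all, and not for Dhx58, Oas2, Usp18, Mx1, Mx2, Ifi27 and Tap2. They were searched on both strands for the core that ISRE and IRF sites share, GAAANNGAA, and for the GAS pattern TTCNNNGAA. The ISRE core was found in 14 of 32 windows (43.8%), belonging to 14 genes, and in 8.55% of all 32817 windows of the table. The GAS pattern was found in 7 of 32 windows (21.9%), against 8.29% of all windows. A match of one pattern overlapped a match of the other only in Bst2. A match is a run of letters and not a measured binding site. A window without a match is not shown to lack a site, since variants such as other spacings were not searched.

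The 250 bases before the start follow for the 5 genes that have a window and passed the test with both Tet1 hairpins. Oas2 also passed with both and has no window. Each is written along the gene's strand with the matches in capitals. Gbp2 holds an ISRE core on its opposite strand at positions -58 to -50 counted from the start, Stat2 one at -221 to -213, and Irf1 a GAS pattern at -90 to -82, while the windows of Tap1 and Xaf1 hold neither. Irf1 has a second window, which held neither pattern, and its first is shown. The Xaf1 window holds the run gaaacgaaac after the start, outside the bases shown. Its spacing is shorter than that of the ISRE core searched for, so it was not counted as a match.
Gbp2, chr3:142620413-142620662, + strand: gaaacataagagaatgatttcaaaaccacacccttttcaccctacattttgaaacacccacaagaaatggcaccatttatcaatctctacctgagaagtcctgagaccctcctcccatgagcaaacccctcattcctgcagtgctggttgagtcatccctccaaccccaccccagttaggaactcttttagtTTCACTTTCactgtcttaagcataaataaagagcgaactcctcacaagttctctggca
Stat2, chr10:128270248-128270497, + strand: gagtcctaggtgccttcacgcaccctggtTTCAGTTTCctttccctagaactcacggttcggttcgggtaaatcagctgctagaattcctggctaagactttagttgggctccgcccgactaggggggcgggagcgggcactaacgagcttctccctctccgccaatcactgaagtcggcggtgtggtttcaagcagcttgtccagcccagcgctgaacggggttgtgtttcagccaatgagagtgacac
Irf1, chr11:53769764-53770013, + strand: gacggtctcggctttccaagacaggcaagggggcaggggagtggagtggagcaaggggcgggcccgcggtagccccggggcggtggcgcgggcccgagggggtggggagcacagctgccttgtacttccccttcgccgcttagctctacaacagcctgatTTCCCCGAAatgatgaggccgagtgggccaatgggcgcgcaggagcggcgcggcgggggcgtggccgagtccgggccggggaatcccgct
Tap1, chr17:34187306-34187555, + strand: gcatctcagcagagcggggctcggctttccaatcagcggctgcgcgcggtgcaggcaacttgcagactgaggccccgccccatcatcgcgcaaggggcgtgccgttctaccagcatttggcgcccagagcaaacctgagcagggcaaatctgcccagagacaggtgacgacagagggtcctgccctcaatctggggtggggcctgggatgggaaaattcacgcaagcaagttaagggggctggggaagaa
Xaf1, chr11:72301379-72301628, + strand: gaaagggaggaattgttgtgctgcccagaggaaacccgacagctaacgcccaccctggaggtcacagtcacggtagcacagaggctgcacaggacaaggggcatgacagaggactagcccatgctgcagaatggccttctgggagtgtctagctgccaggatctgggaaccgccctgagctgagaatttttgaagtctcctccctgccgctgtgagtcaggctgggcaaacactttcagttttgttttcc

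Further ISRE cores, each with 10 bases on either side, were chosen after the values were seen: the first 3 come from genes that fell with the Sin3A shRNA, and the last 2 from genes that passed no test in any comparison.
B2m, chr2:122147538-122147566, + strand: ataagaacatGAAACTGAAaatgggaaag
Gbp3, chr3:142559990-142560018, + strand: aggacacagtTTCAGTTTCtatttcccag
Cxcl10, chr5:92349084-92349112, - strand: tcacgctttgGAAAGTGAAacttacctca
Oas3, chr5:120777716-120777744, - strand: gcagggaggaGAAAACGAAagtgaaggga
Ifit3, chr19:34583364-34583392, + strand: agtggtaagtTTCACTTTCctcttctggt
Of the 14 genes with a core match, 2 passed with Tet1 shRNA 4, 4 with Tet1 shRNA 5 and 7 with the Sin3A shRNA. Of the 14 genes with a window and no core match, 4, 3 and 4 passed in the same order. Of all probe sets 11.6%, 13.8% and 24.8% passed in these comparisons.

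A minority of the interferon genes were called, in both directions with the Tet1 hairpins and mostly lower with the Sin3A shRNA. Differences were tested with limma against the scrambled arrays of the same set, and a gene is called where its Benjamini-Hochberg adjusted p, taken over the 21212 probe sets, lay under 0.05. With Tet1 shRNA 4, 7 of 35 genes (20%) were called, 4 higher and 3 lower, while 11.6% of all probe sets were called, 6.88% higher and 4.71% lower. With Tet1 shRNA 5, 8 of 35 (22.9%) were called, 4 higher and 4 lower, against 13.8% of all probe sets, 8.37% higher and 5.46% lower. With the Sin3A shRNA, 12 of 35 (34.3%) were called, 2 higher and 10 lower, against 24.8% of all probe sets, 12.2% higher and 12.6% lower. The genes were listed with earlier results of these data known, and what the shares owe to that was not tested. The median log2 change of the 35 genes was -0.02, -0.02 and -0.09 in these comparisons, and that of all probe sets was 0.00, 0.00 and 0.01. The 3 scrambled arrays of the Tet1 set serve both hairpins, so their values stand side by side and are not independent of each other. The calls of Ddx58 and Cxcl10 with Tet1 shRNA 5, of Mavs and Stat2 with Tet1 shRNA 4, of Irf1 with both and of Tap1 with Tet1 shRNA 5 did not pass in fits of only the 2 groups compared (adjusted p from 0.0543 to 0.0997). Those of Ddx58, Irf1 and Cxcl10 with Tet1 shRNA 5 also missed the threshold after a repeated quantile normalization (adjusted p = 0.0647, 0.0504 and 0.0685), and those of Mavs with Tet1 shRNA 4 and Ddx58 with Tet1 shRNA 5 after median centring (0.0599 and 0.0796). The probe sets of 13 of the 35 genes lay in the dimmest 25% and those of 3 in the brightest 25% of all probe sets, in each scrambled group. Brightness also depends on the probes, and the deposited values carry no detection call, so a change at a level near background could go unseen.

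**Figure D1:**
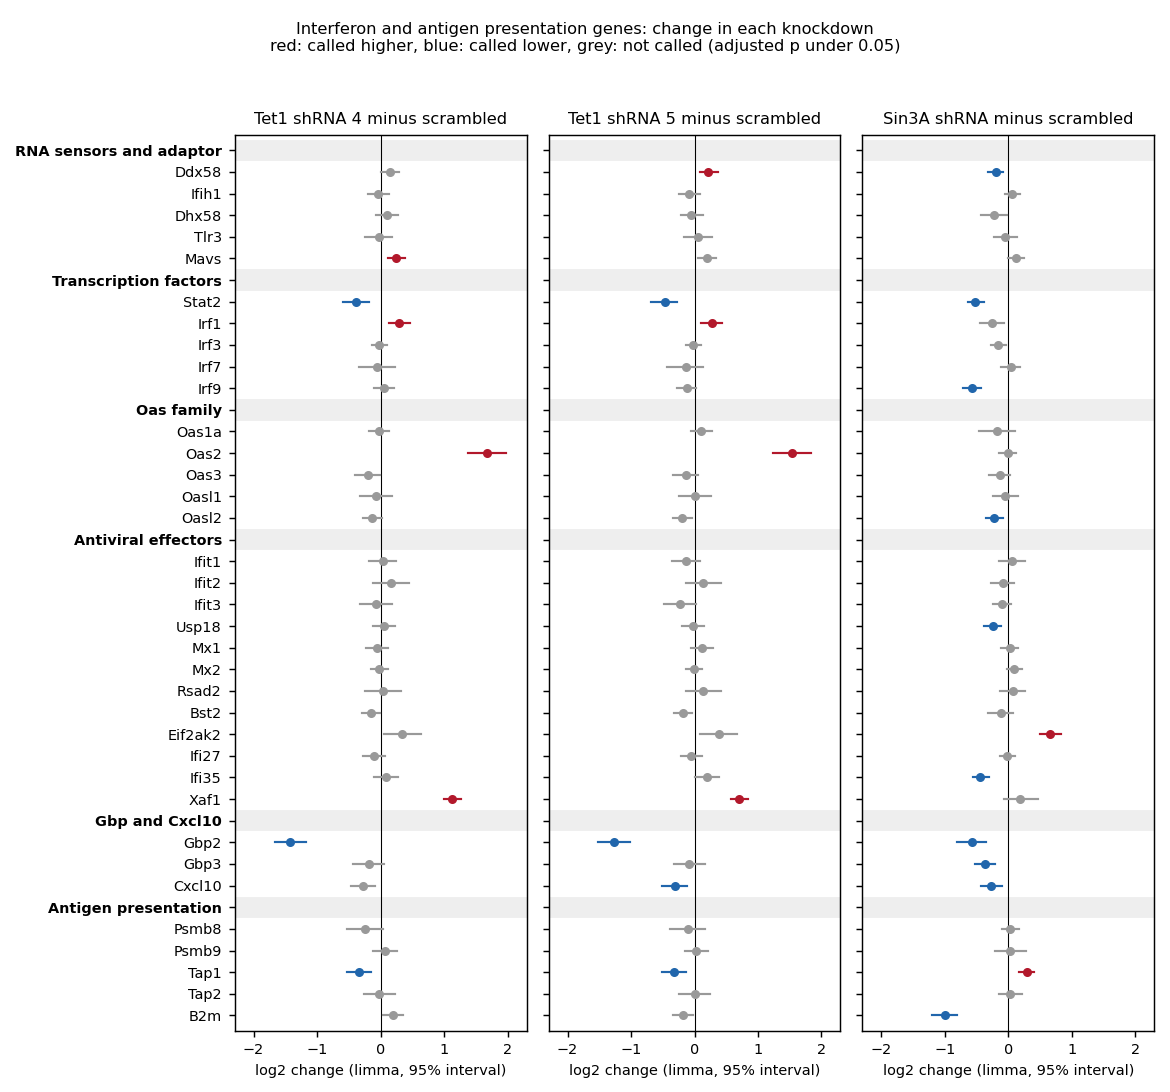
Log2 change of the 35 genes, ordered by role, in each knockdown against the scrambled arrays of its set, with limma's 95% interval (3 arrays a group). Red and blue points passed an adjusted p of 0.05; Oas2 (1.67 and 1.54), Xaf1 (1.13 and 0.70) and Gbp2 (-1.42 and -1.27) stand out in both Tet1 panels, and B2m (-1.0) and Eif2ak2 (0.66) in the Sin3A panel.

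Among the RNA sensors and their adaptor, changes were small. Ddx58, the helicase RIG-I that senses viral RNA with a free 5′ triphosphate, read 9.91, 9.73 and 9.82 (log2) in the scrambled arrays of the Tet1 set, 9.97 in all 3 arrays of Tet1 shRNA 4, and 9.97, 10.06 and 10.11 with Tet1 shRNA 5. Neither hairpin's arrays overlapped the scrambled ones, and 4 of the 9 arrays held the same deposited value. The change was 0.15 with Tet1 shRNA 4 (adjusted p = 0.207) and 0.22 with Tet1 shRNA 5 (adjusted p = 0.0489). The latter call was lost without any 1 of 8 arrays, all but scrambled replicate 1 (adjusted p from 0.0573 to 0.162). It was also lost with the replicate number as a block (adjusted p = 0.0865). In the Sin3A set Ddx58 read 10.46, 10.44 and 10.42 in the scrambled arrays and 10.19, 10.27 and 10.26 with the Sin3A shRNA, all lower. It fell by 0.20 (adjusted p = 0.0201), and no longer passed once scrambled replicate 1 or 2 or Sin3A shRNA replicate 2 was left out (adjusted p = 0.0751, 0.0519 and 0.0565). Nor did this fall pass with a replicate block (0.0641).

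Mavs, the mitochondrial adaptor of both cytoplasmic sensors, read 9.06, 8.94 and 9.10 in the scrambled arrays, 9.28, 9.34 and 9.22 with Tet1 shRNA 4 and 9.22, 9.26 and 9.24 with Tet1 shRNA 5. All 6 knockdown arrays lay above the scrambled ones. It was called higher with Tet1 shRNA 4 (0.24 ± 0.06 SE, adjusted p = 0.0317) and not with Tet1 shRNA 5 (0.20, adjusted p = 0.0602) or the Sin3A shRNA (0.12, adjusted p = 0.127). The call was lost without any 1 of 7 arrays: scrambled replicates 1 and 2, Tet1 shRNA 4 replicates 1 and 2, and each of the 3 Tet1 shRNA 5 replicates (adjusted p from 0.0514 to 0.094). It was also lost with the replicate number as a block, over all 9 arrays (adjusted p = 0.0687) and over the 6 arrays of the 2 groups (0.0856). The rise with Tet1 shRNA 5 passed with a variance trend (adjusted p = 0.0436) and among probe sets above the median level (0.027). The sensor Ifih1, the regulatory helicase Dhx58 and the endosomal receptor Tlr3 passed no test against scrambled, apart from Dhx58 with the Sin3A shRNA in the fit with a replicate block (-0.23, adjusted p = 0.0388). Their changes ran from -0.08 to 0.10 with the Tet1 hairpins and from -0.23 to 0.06 with the Sin3A shRNA.

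Among the transcription factors, Stat2 was called lower in all 3 knockdowns. Stat2, the subunit that gives ISGF3 its activation domain, read 7.86, 8.02 and 8.05 in the scrambled arrays, 7.68, 7.40 and 7.67 with Tet1 shRNA 4 and 7.41, 7.52 and 7.58 with Tet1 shRNA 5. In the Sin3A set it read 9.58, 9.53 and 9.57 in the scrambled arrays and 8.98, 9.12 and 9.03 with the Sin3A shRNA. In both sets every knockdown array lay below every scrambled one. The log2 changes were -0.39 ± 0.09 (SE, adjusted p = 0.0217), -0.47 ± 0.09 (adjusted p = 0.00768) and -0.52 ± 0.06 (adjusted p = 0.000599). The call with Tet1 shRNA 4 was lost without scrambled replicate 2 or 3 (adjusted p = 0.0551 and 0.0837) or Tet1 shRNA 4 replicate 2 (0.0529), while those with Tet1 shRNA 5 and the Sin3A shRNA stood whichever array was left out. Its ISRE core is the one shown above at -221.

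Irf9, the DNA-binding subunit of ISGF3, fell with the Sin3A shRNA and was not called with either Tet1 hairpin. It read 9.27, 9.28 and 9.24 in the scrambled arrays of the Sin3A set and 8.67, 8.60 and 8.81 with the Sin3A shRNA, with no overlap. The change was -0.57 ± 0.06 (adjusted p = 0.000636), against 0.05 (adjusted p = 0.709) and -0.12 (adjusted p = 0.306) with Tet1 shRNA 4 and 5. The probe sets of Stat2 and Irf9, both subunits of 1 complex, were thus both called lower with the Sin3A shRNA.

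Irf1, a factor that type II interferon raises and that activates class I genes, was higher with the Tet1 hairpins. It read 7.88, 7.99 and 8.13 in the scrambled arrays, 8.33, 8.26 and 8.29 with Tet1 shRNA 4 and 8.21, 8.30 and 8.31 with Tet1 shRNA 5. The scrambled values spread over a wider range than those of the knockdown arrays and did not overlap them. The changes were 0.29 ± 0.07 (adjusted p = 0.028) and 0.28 ± 0.07 (adjusted p = 0.0323). Both calls were lost without scrambled replicate 1 (adjusted p = 0.0843 and 0.0945) and without scrambled replicate 2 (0.0533 and 0.0605). The first was also lost without any replicate of Tet1 shRNA 4 (from 0.0515 to 0.101), and the second without any replicate of Tet1 shRNA 5 (from 0.0517 to 0.107) or Tet1 shRNA 4 replicate 1 (0.0514). With a replicate block over the 6 scrambled and Tet1 shRNA 4 arrays the first call was lost as well (adjusted p = 0.0558). In the Sin3A knockdown Irf1 read 8.67, 8.96 and 8.93, below its scrambled 9.14, 9.08 and 9.11, and the change of -0.26 missed the threshold (adjusted p = 0.0505; 0.0236 among probe sets above the median level and 0.033 with a variance trend). Irf3, which Mavs signalling activates, and Irf7, which amplifies interferon production, passed no test, with changes from -0.16 to 0.04 over the 3 knockdowns, although Irf3 with the Sin3A shRNA (-0.16) passed when probe sets above the median level alone were tested (adjusted p = 0.0224).

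Of the Oas family, enzymes that make 2′-5′ oligoadenylate from ATP on binding double-stranded RNA and so switch on RNase L, Oas2 alone was called with the Tet1 hairpins. Oas2 read 5.89, 6.23 and 6.49 in the scrambled arrays, 8.0, 7.84 and 7.78 with Tet1 shRNA 4 and 7.67, 7.84 and 7.72 with Tet1 shRNA 5. Every knockdown array lay more than 1 log2 unit above the highest scrambled array. The rise was 1.67 ± 0.13 (SE), or 3.18-fold, with Tet1 shRNA 4 (adjusted p = 5.7e-05) and 1.54 ± 0.13, or 2.91-fold, with Tet1 shRNA 5 (adjusted p = 9.29e-05). In the Sin3A knockdown Oas2 read 7.46, 7.45 and 7.43, within the range of its scrambled arrays (7.55, 7.46 and 7.37), a change of -0.01 with a 95% interval from -0.15 to 0.12.

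The next gene on chromosome 5, with no protein-coding gene between them in RefSeq, is Oas3. It read 6.10, 6.38 and 6.10 in the scrambled arrays and from 5.89 to 6.10 in the Tet1 knockdown arrays, a change of -0.20 (adjusted p = 0.199) and -0.14 (adjusted p = 0.395). Oas1a, an active synthetase, and the Oas-like genes Oasl1 and Oasl2 changed by -0.19 to 0.11 with the Tet1 hairpins and were not called. Oasl2 was called lower with the Sin3A shRNA, at 6.93, 7.07 and 7.04 against 7.20, 7.21 and 7.30 (-0.22, adjusted p = 0.0285), and that call was lost without any 1 of the 6 arrays (adjusted p from 0.0531 to 0.0882). A replicate block ended it too (0.0521). The family holds close relatives, and how far a probe set responds to a related transcript was not tested.

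**Figure D2:**
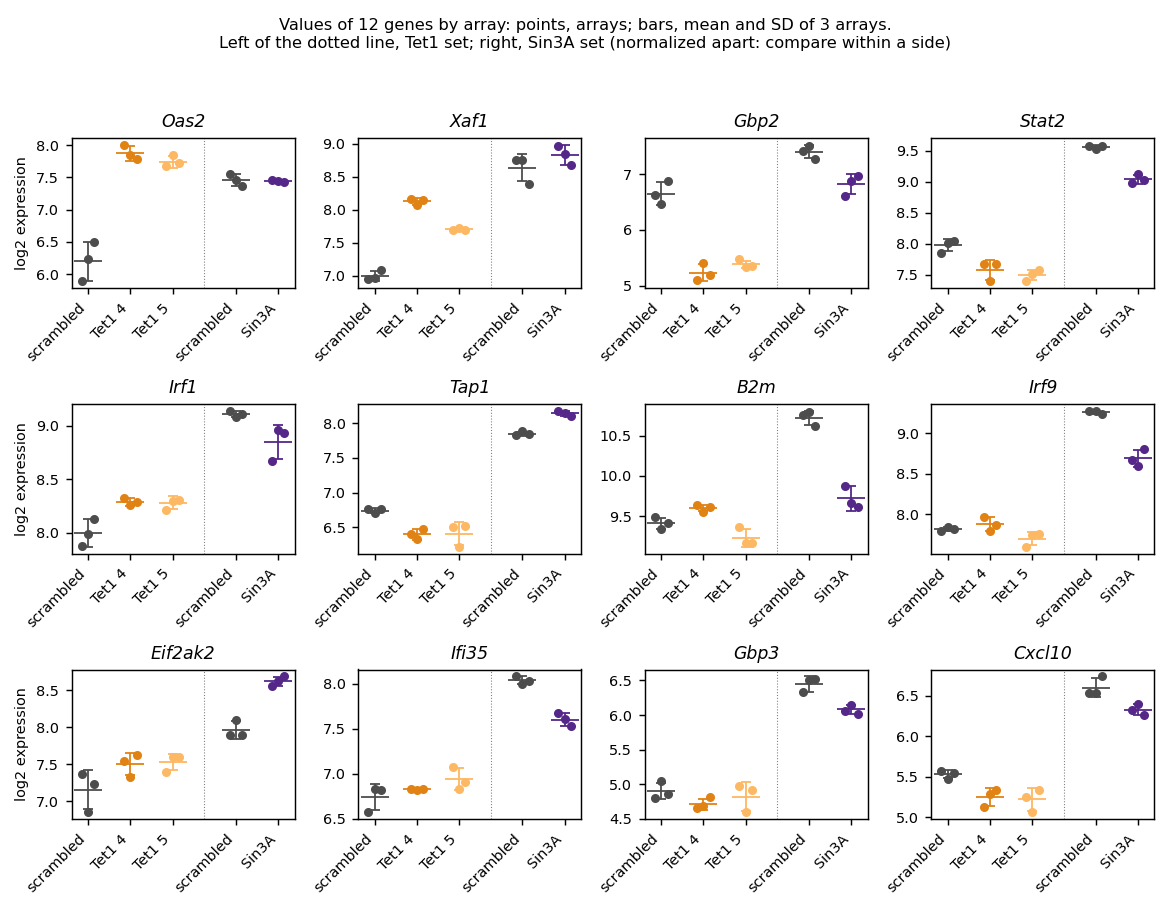
Deposited log2 values of 12 genes on each of the 15 arrays, with the mean and SD of each group of 3; the 9 arrays left of the dotted line are the Tet1 set and the 6 to its right the Sin3A set, which were normalized apart. Oas2 and Xaf1 sit higher and Gbp2 and Stat2 lower with both Tet1 hairpins, and B2m, Irf9 and Ifi35 sit lower and Eif2ak2 higher with the Sin3A shRNA, with no overlap with the scrambled arrays of their set.

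The 12 antiviral effectors found were mostly dim, 8 of them in the dimmest 25% of probe sets in the scrambled arrays of the Tet1 set. With each Tet1 hairpin 1 of them was called (8.33%), beside 11.6% and 13.8% of all probe sets. That gene was Xaf1, an interferon-inducible protein that binds the apoptosis inhibitor Xiap. It read 6.95, 6.97 and 7.09 in the scrambled arrays, 8.17, 8.08 and 8.15 with Tet1 shRNA 4 and 7.70, 7.72 and 7.70 with Tet1 shRNA 5. The 3 groups did not overlap, and Tet1 shRNA 4 gave the highest values. The rise was 1.13 ± 0.06 (SE), or 2.19-fold, with Tet1 shRNA 4 (adjusted p = 7.23e-06) and 0.70 ± 0.06, or 1.63-fold, with Tet1 shRNA 5 (adjusted p = 8.79e-05). With the Sin3A shRNA it read 8.97, 8.84 and 8.68 beside 8.76, 8.76 and 8.39, overlapping ranges and a change of 0.19 (adjusted p = 0.277).

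The Sin3A knockdown had 3 of the 12 effectors called (25%), close to the 24.8% of all probe sets. Eif2ak2, the kinase PKR that halts translation on double-stranded RNA, read 7.89, 8.10 and 7.89 in the scrambled arrays and 8.56, 8.62 and 8.69 with the Sin3A shRNA. It rose by 0.66 ± 0.07 (adjusted p = 0.000604), the largest rise among the 35 genes in that comparison, and all 3 knockdown arrays lay above the scrambled ones. With the Tet1 hairpins it changed by 0.34 (adjusted p = 0.146) and 0.38 (adjusted p = 0.0994), over scrambled arrays that ran from 6.85 to 7.37, and the first passed with a replicate block over the 6 scrambled and Tet1 shRNA 4 arrays (adjusted p = 0.0366). Ifi35, an interferon-induced leucine zipper protein, fell from 8.08, 8.0 and 8.03 to 7.67, 7.61 and 7.53 with the Sin3A shRNA (-0.44 ± 0.06, adjusted p = 0.00125). Usp18, the protease that removes Isg15 from proteins and damps the type I receptor, fell from 6.66, 6.78 and 6.80 to 6.49, 6.54 and 6.45 (-0.25, adjusted p = 0.0144).

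The remaining 8 effectors passed no test against scrambled in any knockdown with all arrays and probe sets in the fit. They are Ifit1, Ifit2 and Ifit3, which bind viral RNA or stop its translation, the GTPases Mx1 and Mx2, the radical enzyme Rsad2 (viperin), the tether Bst2, which holds budding virus on the cell, and Ifi27. Their changes ran from -0.23 (Ifit3) to 0.16 (Ifit2) with the Tet1 hairpins and from -0.12 (Bst2) to 0.09 (Mx2) with the Sin3A shRNA. Bst2 was called with the Sin3A shRNA once scrambled replicate 2 was left out (-0.22, adjusted p = 0.0352), and with Tet1 shRNA 5 among probe sets above the median level (-0.18, adjusted p = 0.0462). Ifit3 and Ifit1, with 3 ISRE cores each, thus passed no test in either set.

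The guanylate-binding proteins and Cxcl10, which type II interferon induces strongly, were lower wherever they were called. Gbp2, a GTPase that attacks pathogen vacuoles, read 6.62, 6.47 and 6.88 in the scrambled arrays, 5.11, 5.40 and 5.19 with Tet1 shRNA 4 and 5.47, 5.33 and 5.35 with Tet1 shRNA 5. All 6 knockdown arrays lay about 1 log2 unit or more below the lowest scrambled array. The change was -1.42 ± 0.11 (SE, adjusted p = 4.79e-05), 2.68-fold lower, and -1.27 ± 0.11 (adjusted p = 9.29e-05), 2.41-fold lower. In the Sin3A set it read 6.61, 6.88 and 6.96 beside 7.41, 7.50 and 7.27 and fell by 0.58 (adjusted p = 0.00455).

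Gbp3, a relative of Gbp2 on chromosome 3 with 1 protein-coding gene between them, fell with the Sin3A shRNA from 6.33, 6.51 and 6.52 to 6.06, 6.15 and 6.02 (-0.37 ± 0.07, adjusted p = 0.00642). With the Tet1 hairpins its arrays overlapped the scrambled ones, with changes of -0.19 (adjusted p = 0.347) and -0.08 (adjusted p = 0.733). Cxcl10, a chemokine that draws T cells, read 5.57, 5.47 and 5.55 in the scrambled arrays, 5.13, 5.29 and 5.34 with Tet1 shRNA 4 and 5.25, 5.06 and 5.34 with Tet1 shRNA 5, all 6 below. Its change was -0.28 (adjusted p = 0.0679) and -0.31 (adjusted p = 0.0368), and the second call was lost without scrambled replicate 1 or 3 (adjusted p = 0.102 and 0.108) or Tet1 shRNA 5 replicate 1 or 2 (0.0818 and 0.129). With the Sin3A shRNA it read 6.33, 6.40 and 6.26 against 6.53, 6.53 and 6.74 (-0.27, adjusted p = 0.0308). That call was lost without scrambled replicate 3 (adjusted p = 0.0739) and without Sin3A shRNA replicate 1, 2 or 3 (0.0667, 0.0523 and 0.0897). A replicate block ended it as well (0.0732).

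Of the 5 antigen presentation genes, B2m fell by 1 log2 unit with the Sin3A shRNA, and Tap1 moved in opposite directions in the sets. B2m, the invariant light chain that every class I molecule needs to reach the cell surface, read 10.76, 10.79 and 10.62 in the scrambled arrays and 9.88, 9.66 and 9.61 with the Sin3A shRNA. The groups did not overlap, and the change was -1.0 ± 0.08 (SE), 2.01-fold lower (adjusted p = 0.000213), the largest fall among the 35 genes there. In the Tet1 set B2m read 9.49, 9.34 and 9.41 in the scrambled arrays, 9.64, 9.55 and 9.61 with Tet1 shRNA 4 and 9.36, 9.17 and 9.17 with Tet1 shRNA 5. The change was 0.19 and -0.18, neither of them called (adjusted p = 0.14 for each).

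Tap1, a subunit of the transporter that carries peptides into the endoplasmic reticulum, read 6.77, 6.70 and 6.76 in the scrambled arrays of the Tet1 set, 6.40, 6.33 and 6.48 with Tet1 shRNA 4 and 6.50, 6.22 and 6.52 with Tet1 shRNA 5. All knockdown arrays were lower, by -0.34 ± 0.09 (adjusted p = 0.0302) and -0.33 ± 0.09 (adjusted p = 0.0306). Both calls were lost without scrambled replicate 1 (adjusted p = 0.0849 and 0.0829) or 3 (0.0929 and 0.0938), the first also without Tet1 shRNA 4 replicate 1 or 2 (0.0902 and 0.0908), and the second without Tet1 shRNA 4 replicate 1 (0.0505) or Tet1 shRNA 5 replicate 2 (0.0822). In the Sin3A set Tap1 rose from 7.83, 7.89 and 7.84 to 8.18, 8.15 and 8.10 (0.29 ± 0.05, adjusted p = 0.00485). The genes of the partner Tap2 and of the immunoproteasome subunits Psmb8 and Psmb9, which cut peptides for class I, lie beside Tap1 on chromosome 17 in the order Psmb9, Tap1, Psmb8, Tap2 with no protein-coding gene between them. None of these 3 passed a test against scrambled in limma, and none had an unadjusted p under 0.05. Their changes ran from -0.25 to 0.07 with the Tet1 hairpins and were 0.03 each with the Sin3A shRNA.

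The Tet1 hairpins were compared directly to see where they differ. Xaf1 was the only 1 of the 35 genes called, lower with Tet1 shRNA 5 than with Tet1 shRNA 4 by -0.43 ± 0.06 (SE, 95% interval from -0.56 to -0.29, adjusted p = 0.0365). Of all probe sets 0.141% were called in this comparison, 0.0566% higher and 0.0849% lower. The Xaf1 difference kept its size when any array was left out (from -0.45 to -0.41) but passed the threshold in 1 of 9 such fits, that without scrambled replicate 2. Without each of the other 8 arrays (scrambled replicates 1 and 3 and every replicate of both Tet1 hairpins) the adjusted p was from 0.0549 to 0.215. With a replicate block it was 0.113. B2m differed by -0.37 (95% interval from -0.53 to -0.21), which was not called (adjusted p = 0.117, or 0.0454 among probe sets above the median level).

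Whether the Tet1 and Sin3A knockdowns differ was tested in a fit of all 15 arrays, as the mean effect of both Tet1 hairpins minus the Sin3A effect, each against its own scrambled arrays. Of the 35 genes 9 (25.7%) differed, 7 with a higher and 2 with a lower Tet1 effect, while 20% of all probe sets did, 11.3% higher and 8.71% lower. Oas2 differed most, by 1.62 ± 0.15 (SE, adjusted p = 4.29e-06), followed by B2m at 1.01 ± 0.11 (adjusted p = 1.23e-05). Xaf1 differed by 0.72, Ifi35 by 0.58, Irf1 and Irf9 by 0.54 each and Ddx58 by 0.39, with adjusted p between 0.000471 and 0.00185. Gbp2, which fell in both sets, fell further with the Tet1 hairpins, by -0.77 ± 0.15 (adjusted p = 0.00191), and Tap1 differed by -0.62 ± 0.10 (adjusted p = 0.00036). All 9 calls stood whichever of the 15 arrays was left out. Stat2 did not pass (0.08, 95% interval from -0.15 to 0.31, adjusted p = 0.661), nor did Eif2ak2 (-0.30, interval from -0.64 to 0.03, adjusted p = 0.207). The Eif2ak2 difference was called without scrambled replicate 2 of the Tet1 set (-0.46, adjusted p = 0.0167), and that of Usp18 (0.27, adjusted p = 0.051) without scrambled replicate 2 or Tet1 shRNA 5 replicate 2 of the Tet1 set or scrambled replicate 1 of the Sin3A set (0.0466, 0.021 and 0.0416). The sets were normalized apart, and set and knocked-down gene go together in this comparison, so anything else that changes an effect between the sets cannot be told apart from the target.

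**Figure D3:**
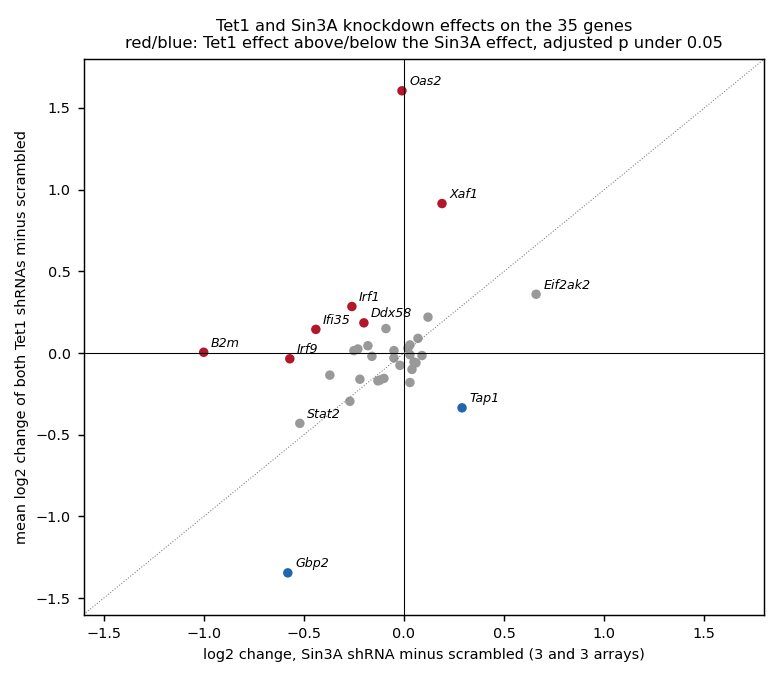
Mean log2 change of both Tet1 hairpins (vertical) against that of the Sin3A shRNA (horizontal) for the 35 genes, each relative to the scrambled arrays of its own set; the dotted line marks equal effects. The 7 red genes lie above it, Oas2 and B2m farthest, and the 2 blue genes, Gbp2 and Tap1, below it, while Stat2 lies close to it.

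The rest of the pathway was read from a wider list of 91 genes, of which 85 had a probe set. Of these 16 were called higher and 3 lower with Tet1 shRNA 4, 14 higher and 4 lower with Tet1 shRNA 5, and 9 higher and 18 lower with the Sin3A shRNA. These are 22.4%, 21.2% and 31.8% of the list, beside 11.6%, 13.8% and 24.8% of all probe sets (6.88% higher and 4.71% lower, 8.37% and 5.46%, and 12.2% and 12.6%). This list too was chosen with earlier results of these data known, and what its shares owe to that was not tested. The 7 interferon ligand genes, with Ifnb1, Ifng and 3 Ifna genes among them, gave no call against scrambled in limma and none had an unadjusted p under 0.05. Of their probe sets 4 lay in the dimmest 25% in each scrambled group, where a change could go unseen. Among 15 receptors, kinases and their regulators, 6 were called with Tet1 shRNA 4 and 5 with Tet1 shRNA 5, all of them higher, and 5 higher and 2 lower with the Sin3A shRNA. These are 40%, 33.3% and 46.7% of the 15, beside the same 11.6%, 13.8% and 24.8% of all probe sets. The median change there was 0.31, 0.26 and 0.10, beside 0.00, 0.00 and 0.01 over all probe sets.

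Ifnar2, the signalling chain of the type I receptor, read 8.10, 7.89 and 8.02 in the scrambled arrays and from 8.70 to 8.83 in the 6 Tet1 knockdown arrays. It rose by 0.76 (adjusted p = 0.000107) and 0.79 (adjusted p = 9.13e-05), and with the Sin3A shRNA changed by 0.11 (adjusted p = 0.147). The receptor genes Il10rb, Ifnar1 and Ifngr2 follow it in this order on chromosome 16 with no protein-coding gene between them. Il10rb, a shared chain of the type III interferon and interleukin-10 receptors, rose by 0.66 (adjusted p = 0.00319) and 0.48 (adjusted p = 0.0145). Ifngr2, the second chain of the type II receptor, rose by 0.46 with each hairpin (adjusted p = 0.00634 and 0.00583) and fell by 0.38 with the Sin3A shRNA (adjusted p = 0.00197). Ifnar1, which lies between these and was named here after its values were seen, changed by -0.03 (adjusted p = 0.784) and 0.09 (adjusted p = 0.357). With Tet1 shRNA 5 Il10rb did not pass once scrambled replicate 1 or 3 or Tet1 shRNA 5 replicate 2 was left out (adjusted p = 0.0522, 0.0607 and 0.051).

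Jak1, the kinase that all 3 interferon receptor types use, read 9.21, 9.17 and 9.30 in the scrambled arrays and from 9.89 to 10.02 in the Tet1 knockdown arrays. It rose by 0.78 and 0.73 with the Tet1 hairpins (adjusted p = 5.38e-05 and 8.13e-05) and by 0.30 with the Sin3A shRNA (adjusted p = 0.00574). Socs3, a feedback inhibitor of cytokine receptors and also a target of the LIF in the medium, rose by 0.45, 0.44 and 0.44 in the 3 knockdowns (adjusted p = 0.00115, 0.0012 and 0.0016). Jak2, the partner of Jak1 at the type II receptor, rose by 0.53 with the Sin3A shRNA (adjusted p = 0.0153), a call lost without scrambled replicate 1 or Sin3A shRNA replicate 2 (adjusted p = 0.0536 and 0.0587). Of 13 further sensing genes Tmem173 (STING, the adaptor of the cytoplasmic DNA sensor) moved most, from 5.56, 6.13 and 5.63 in the scrambled arrays to between 6.67 and 6.92 in the Tet1 knockdown arrays. It rose by 1.03 and 0.98 (adjusted p = 0.00115 and 0.00143) and changed by -0.07 with the Sin3A shRNA. Trim25, the ubiquitin ligase of RIG-I, rose by 0.19 and 0.25 (adjusted p = 0.0414 and 0.0112). The first of these calls was lost without any 1 of the 9 arrays (adjusted p from 0.063 to 0.119) and with a replicate block (0.0864 over 9 arrays and 0.0874 over 6).

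**Figure D4:**
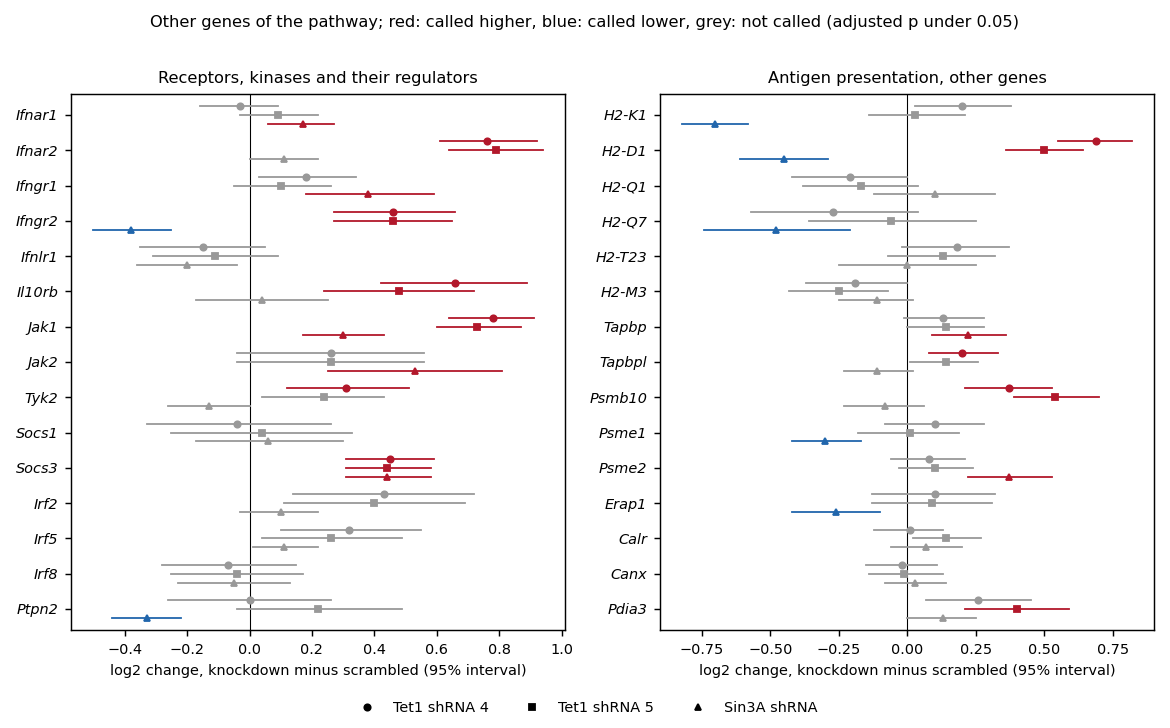
Log2 change with limma's 95% interval of 15 receptors, kinases and regulators (left) and 15 further antigen presentation genes (right), with circles for Tet1 shRNA 4, squares for Tet1 shRNA 5 and triangles for the Sin3A shRNA. Ifnar2 and Jak1 lie between 0.73 and 0.79 with both Tet1 hairpins, and H2-D1 is higher with both Tet1 hairpins (0.69 and 0.50) and lower with the Sin3A shRNA (-0.45).

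Among 35 further effectors, those called with both Tet1 hairpins also went both ways. Irgm1, an interferon-induced GTPase of autophagy, rose from 6.06, 5.73 and 6.03 to between 6.88 and 7.59 (1.09 and 1.5, adjusted p = 0.000475 and 8.54e-05). Parp14 and Dtx3l, neighbours on chromosome 16, rose by 0.40 and 0.49 (adjusted p = 0.0018 and 0.00054) and by 0.60 and 0.63 (adjusted p = 0.00497 and 0.00337). The transmembrane proteins Ifitm1 and Ifitm3, which block virus entry, fell by 0.57 and 0.73 (adjusted p = 0.00034 and 8.64e-05) and by 0.43 and 0.46 (adjusted p = 0.00793 and 0.00499). Ifi30, a lysosomal reductase that prepares antigen, fell by 0.55 and 0.74 (adjusted p = 0.000892 and 0.000177). With the Sin3A shRNA Ifitm1 fell from 12.81, 12.76 and 12.72 to 12.07, 11.78 and 11.68 (-0.92, adjusted p = 0.000495), Dtx3l fell by 0.63 (adjusted p = 0.00122) and the ATPase gene Tor3a rose by 0.57 (adjusted p = 0.000325). Ifi30 fell by 0.25 there (adjusted p = 0.0142, or 0.0587 without Sin3A shRNA replicate 2), and Parp14 rose by 0.27 (adjusted p = 0.0415), a call lost without scrambled replicate 1 or 3 or Sin3A shRNA replicate 2 or 3 (adjusted p from 0.109 to 0.144). Irgm1 changed by -0.32 there (adjusted p = 0.0636) and was called lower with a variance trend (0.0491) or without Sin3A shRNA replicate 3 (0.022). Its Tet1 effect minus its Sin3A effect was 1.61 (adjusted p = 1.16e-05). Tor3a also rose with Tet1 shRNA 5, by 0.45 (adjusted p = 0.00751). With Tet1 shRNA 4 its change of 0.3 was not called (adjusted p = 0.0559). Several alternatives called the latter, among them a replicate block (0.0272 over 9 arrays and 0.0431 over 6).

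Of 15 further antigen presentation genes, 3 were called with each Tet1 hairpin, all higher, and 2 higher and 5 lower with the Sin3A shRNA. These are 20%, 20% and 46.7% of the 15, beside 11.6%, 13.8% and 24.8% of all probe sets. H2-D1, a class I heavy chain, read 7.88, 7.82 and 7.92 in the scrambled arrays of the Tet1 set, 8.50, 8.57 and 8.60 with Tet1 shRNA 4 and 8.45, 8.30 and 8.38 with Tet1 shRNA 5, a rise of 0.69 and 0.50 (adjusted p = 0.00011 and 0.000647). With the Sin3A shRNA it fell from 9.58, 9.50 and 9.72 to 9.21, 9.11 and 9.12 (-0.45, adjusted p = 0.00254). H2-K1, another class I heavy chain, fell with the Sin3A shRNA from 8.76, 8.72 and 8.71 to 8.06, 7.97 and 8.06 (-0.70, adjusted p = 0.000118), and changed by 0.20 (adjusted p = 0.143) and 0.03 (adjusted p = 0.865) with the Tet1 hairpins. The light chain B2m and both of these heavy chains were thus called lower with the Sin3A shRNA. The difference between the Tet1 and Sin3A effects was 1.04 for H2-D1 and 0.82 for H2-K1 (adjusted p = 1.29e-06 and 1.72e-05). The third immunoproteasome subunit, Psmb10, rose by 0.37 and 0.54 with the Tet1 hairpins (adjusted p = 0.00723 and 0.000829) and changed by -0.08 with the Sin3A shRNA. Class I heavy chains resemble each other in sequence, and how far each probe set responds to its relatives was not tested.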

How the data were processed

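Biotin-labelled total RNA, 1 Affymetrix array a sample, was measured (whole transcript assay, per the labels' protocols). The authors deposited log2 expression values, and affy, RMA and limma are named in the submitters' processing notes, with no version. Column means lay from 7.08 to 7.11 in the Tet1 set and at 8.09 in the Sin3A set, so levels were compared only within a set. Precision is limited by the number of arrays. Of 21212 probe sets, 18786 had 1 gene symbol in the platform annotation, 6 several and 2420 none.

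The 9 arrays of the Tet1 set and the 6 of the Sin3A set were fitted separately, and all 15 together for the Tet1 effect minus the Sin3A effect (limma 3.58.1, R 4.3.3; lmFit and eBayes, two-sided, tested on simulated data). Adjusted p-values are Benjamini-Hochberg values across the 21212 probe sets. Named are all members found, and of the wider list those called with both Tet1 hairpins in 1 direction, the 5 largest Sin3A calls and the exceptions marked in the text. Members and lists were chosen with earlier results of these data known. Promoter windows and gene order came from RefSeq (GRCm38.p6). Scrambled and Tet1 shRNA 4 arrays of 1 number deviated together (r = 0.274, 0.517 and 0.171), so the fit blocked on that number is given beside calls it changes. Replicates 1 and 3 of these 2 groups were about as alike across numbers (r = 0.281 and 0.162), so the number alone does not describe this. The labels do not say what a number shares. The alternatives tried were a replicate block, repeated quantile normalization, median centring, a variance trend, brighter probe sets only, fits of 2 groups, and arrays left out.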

Additional observations from a re-analysis of the deposited data

Results flagged for a closer look

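Xaf1 differed between the hairpins against the same gene: its log2 level with Tet1 shRNA 5 minus that with Tet1 shRNA 4 was -0.43 (limma, adjusted p = 0.0365), the only such difference among the 35 genes. It passed the threshold in 1 of 9 fits with an array left out.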

How the results depend on the processing

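No called value changed direction under any alternative run. Of the values of single genes 104, over 57 gene and comparison pairs, had the opposite sign under an alternative, and none of these was called before or then (reported changes of at most 0.14 in size). The count of genes called with Tet1 shRNA 4 (7) was 4 when only the 2 groups compared were fitted, 3 without the 2 arrays that had deviated alike in an earlier look (scrambled and Tet1 shRNA 4 replicate 2), and 3 to 6 with 1 array left out. With Tet1 shRNA 5 (8) it was 5 after repeated quantile normalization, 4 with only the 2 groups, 4 without those 2 arrays, and 4 to 7 with 1 array left out. The Sin3A count (12) was 7 and that of the Tet1 effect minus the Sin3A effect (9) was 5 when only probe sets above the median were tested, since fewer genes entered. Between the Tet1 hairpins the count (1) was 0 after centring, 0 with only the 2 groups, 2 with brighter probe sets only, and 0 to 1 with 1 array left out. With a replicate block the counts were 6, 7, 10, 0 and 9 in the order Tet1 shRNA 4, Tet1 shRNA 5, Sin3A shRNA, between hairpins, Tet1 minus Sin3A. Of the 10 with the Sin3A shRNA, 9 were among the 12. A block over the scrambled and Tet1 shRNA 4 arrays alone, chosen after seeing the data, also gave 6, of which 5 were among the 7. Arrays of 1 number did not deviate together in the other comparisons. There r ran from -0.287 to 0.0361 over the 6 other pairs of the Tet1 set. Over the 3 pairs of the Sin3A set it ran from -0.274 to 0.0212. Over all groups, in 4 of 18 and 0 of 6 comparisons of an array with the arrays of another group was its own number the closest. Between the hairpins, higher calls made up 40% of all calls, 51.6% after centring and 33.3% after quantile normalization. Of the values of single genes under alternatives, 4058 kept their side of the threshold, 123 lost it and 28 gained it; apart from the array fits named above, the causes were not tested. The calls of Oas2, Xaf1 and Gbp2 with both Tet1 hairpins stood under every alternative in which the gene was tested. Array number and signal over background limit what these data can show.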
